A study of Mus musculus with 6 samples.

Results

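Mitochondrial ribosomal protein genes were examined in RNA-seq profiles of mouse gastrocnemius, the large calf muscle, from Tmem182 knockout and wild-type animals. The genes were chosen by symbol alone: every gene named Mrpl or Mrps followed by a number and at most 1 letter was taken, which gave 78 of the 19458 genes in the tables. All 78 passed the filter on low counts that left 12774 genes for testing. The lowest count of any of them in any library was 102, for Mrpl47. The symbol rule itself uses no expression value. The 3 knockout libraries carried the genotype tmem182-/- and the 3 control libraries were wild type. All 6 came from C57BL/6 mice at 9 weeks of age, were sequenced on a BGISEQ-500 instrument, and carried no other allele, agent or treatment in their labels. The sources used here do not give how the knockout allele was made or whether it is limited to muscle. The genotype label names tmem182 for every knockout library, while the source label of knockout libraries 2 and 3 names tmem183 and tmem184. The extraction text speaks of myoblasts and myotubes in place of muscle tissue. Nothing in the labels ties the libraries to separate mice, and the p-values therefore cover the spread among these samples alone, some of which may be technical.

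Mitochondria keep their own ribosomes, which translate the few messages encoded by mitochondrial DNA, all of them for subunits of the respiratory chain and ATP synthase. The RNAs of that ribosome are mitochondrial transcripts, but its proteins are made from nuclear genes in the cytosol and imported. Products named Mrpl belong to the large subunit, which forms peptide bonds, and most of those named Mrps belong to the small subunit, which decodes the message. Skeletal muscle is rich in mitochondria, more so in slow and oxidative fibres than in the fastest fibres.

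Symbols gave 49 Mrpl genes and 29 Mrps genes. By the place of the product, 51 belonged to the large subunit, since Mrps18a and Mrps30 encode large-subunit proteins in spite of their names. The other 27 were counted with the small subunit. Among them was Mrps36, whose product is now known as Kgd4, a component of the 2-oxoglutarate dehydrogenase complex. The genes lay on 17 chromosomes, with 11 of them on chromosome 11.

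Promoter sequences from RefSeq (GRCm38.p6, from 250 bases before to 50 bases after the start) were found for 69 of the 78 genes and searched on both strands for short motifs. The core CCGGAAG, bound by ETS-family factors, occurred in 26 of the 69, or 37.7%. Of the 15219 genes in the table that had a promoter entry, 14.7% held it. Its longer form CCGGAAGT occurred in 12, or 17.4%, against 6.45%. The motif of Nrf1, written as GCGCA and GCGC with any 1 base between them, occurred in 13, or 18.8%, against 8.23%, and its form with T between them in 3, or 4.35%, against 1.69%. The motif AAGATGGC, associated with Yy1, occurred in 12, or 17.4%, against 3.96%, and followed by GGC in 5, or 7.25%, against 1.22%. TATAAA occurred in 5, or 7.25%, against 11.7%, and CCAAT in 27, or 39.1%, against 42.2%. A match describes the letters and is not a bound site. The table's genes were not matched for GC content and were not limited to the 12774 genes tested. The stretch from 250 bases before to 30 after the start is printed for 4 genes: Mrpl30 and Mrpl9 had the smallest p-values in the knockout comparison, Mrpl12 was among the most abundant, and Mrps18a carries the ETS and Yy1 motifs. They were chosen after the values were seen. Mrpl30 (chr1:37890227-37890506), Mrpl9 (chr3:94443086-94443365), Mrpl12 (chr11:120484387-120484666) and Mrps18a (chr17:46110754-46111033) are on the plus strand and read 5′ to 3′. In Mrpl30, Mrpl9 and Mrpl12 the capitals mark the Nrf1 motif, with its first printed base 83, 28 and 81 bases before the start. In Mrpl30 and Mrpl12 the motif was found on the opposite strand alone, so the capitals show its reverse complement. In Mrpl9 it was found on both strands. In Mrps18a they mark CCGGAAG, 26 bases before the start, and AAGATGGC, whose first base is base 12 with the start as base 1.

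Mrpl30: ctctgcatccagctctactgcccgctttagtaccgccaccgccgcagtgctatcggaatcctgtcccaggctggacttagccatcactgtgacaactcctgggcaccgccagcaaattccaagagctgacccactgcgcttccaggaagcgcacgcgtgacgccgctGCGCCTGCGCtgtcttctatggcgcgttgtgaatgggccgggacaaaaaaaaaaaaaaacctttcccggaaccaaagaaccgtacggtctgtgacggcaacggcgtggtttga
Mrpl9: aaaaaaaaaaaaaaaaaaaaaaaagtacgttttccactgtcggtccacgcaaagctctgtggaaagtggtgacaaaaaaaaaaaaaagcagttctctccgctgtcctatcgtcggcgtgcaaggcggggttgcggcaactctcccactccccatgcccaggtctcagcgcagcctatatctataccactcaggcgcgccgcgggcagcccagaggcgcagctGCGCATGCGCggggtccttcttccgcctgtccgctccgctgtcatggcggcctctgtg
Mrpl12: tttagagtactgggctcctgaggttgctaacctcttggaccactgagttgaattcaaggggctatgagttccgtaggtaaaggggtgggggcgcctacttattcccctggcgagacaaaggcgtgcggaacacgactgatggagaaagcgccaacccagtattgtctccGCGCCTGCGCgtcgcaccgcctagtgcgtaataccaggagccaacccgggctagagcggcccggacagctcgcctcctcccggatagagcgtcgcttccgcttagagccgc
Mrps18a: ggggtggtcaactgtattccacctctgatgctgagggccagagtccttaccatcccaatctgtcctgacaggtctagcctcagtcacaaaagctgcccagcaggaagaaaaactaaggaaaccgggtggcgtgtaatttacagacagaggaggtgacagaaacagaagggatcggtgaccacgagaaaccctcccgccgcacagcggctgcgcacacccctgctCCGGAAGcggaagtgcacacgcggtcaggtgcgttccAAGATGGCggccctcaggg

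Library totals ran from 16212341 to 18672630 expected counts. Skeletal muscle markers were abundant in every library, with Acta1, skeletal muscle actin, at 27926 to 34045 FPKM (fragment numbers divided by transcript length and library size) and Ckm, muscle creatine kinase, at 12708 to 21532. The FPKM of Tmem182 itself was 147.5, 121.4 and 121.0 in wild type but 6.23, 4.30 and 2.17 in knockout, a log2 fold change of -5.02 (SE 0.30, Benjamini-Hochberg adjusted p = 0.00391, edgeR quasi-likelihood test). Leaving out knockout library 2 gave an adjusted p of 0.0716, and leaving out wild-type library 3 gave 0.0529, by the same edgeR test. Tmem182 was the 1 gene of 12774 called at an adjusted p under 0.05, which is 0.00783% of the genes tested. Knockout library 1 stood apart in composition: its top 10 genes held 22.0% of the counts where those of the rest held 28.2% to 31.9%, and its TMM factor, 1.19, exceeded the 0.933 to 1.04 of the rest.

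Mitochondrial ribosomal protein transcripts were at moderate levels in wild-type muscle and differed widely among themselves. The median gene had a wild-type mean of 23.3 FPKM, with quartiles of 14.1 and 37.7. Of the 78 genes, 2 had a wild-type mean of at least 100 FPKM, 65 lay between 10 and 100, and 11 lay under 10. From the highest to the lowest the range was 46.9-fold. In the assembled ribosome most of these proteins are present in equal copy. The median was 24.02 FPKM for large-subunit genes and 20.4 FPKM for small-subunit genes. With FPKM rescaled to the same total in every library (TPM), the genes together made up 4956 to 6393 in the knockout libraries and 4726 to 5334 in the wild-type libraries.

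The order was led by Mrpl42, which encodes a large-subunit protein with no bacterial counterpart. Wild-type libraries 1, 2 and 3 gave 215.2, 188.7 and 218.8 FPKM, and knockout libraries 1, 2 and 3 gave 260.6, 215.5 and 225.7. The groups overlapped, with knockout library 1 highest and wild-type library 2 lowest. Mrps21, a small-subunit protein related to bacterial S21, was next at 114.5 ± 4.75 FPKM (SD, n = 3) in wild type and between 115.4 and 120.5 in the knockout libraries. Mrpl23, a protein at the exit of the large subunit's peptide tunnel, had a wild-type mean of 82.4 ± 9.54 FPKM (SD, n = 3). Mrpl12, the stalk protein that draws translation factors to the large subunit, followed at 71.3 ± 8.86 FPKM (SD, n = 3). Knockout library 1 gave 112.5 FPKM for Mrpl12, while the other 5 libraries lay between 63.3 and 80.9. Mrpl30, at 62.6 ± 5.32 FPKM (SD, n = 3), and Mrpl51, at 62.1 ± 3.42, completed the 6 highest, which together held 25.6% of the summed wild-type level. On GRCm38, Mrpl42 lies on chromosome 10 at 95480805 to 95501940, on the minus strand, and Mrps21 on chromosome 3 at 95862634 to 95871519, also on the minus strand. Mrpl23 lies on chromosome 7 at 142532686 to 142540747 and Mrpl12 on chromosome 11 at 120484613 to 120489065, both on the plus strand.

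The 6 lowest genes lay between 4.43 and 6.89 FPKM in wild type. Mrpl19, related to bacterial L19, was lowest at 4.43 ± 0.71 FPKM (SD, n = 3), and Mrpl41 followed at 4.53 ± 0.9968. Their ranges ran together, from 3.65 to 5.04 and from 3.57 to 5.56 in wild type, so these neighbours cannot be put in order. Mrps25 stood at 5.09 ± 0.37 FPKM (SD, n = 3), Mrpl17 at 5.29 ± 0.36, Mrpl35 at 6.87 ± 0.59 and Mrpl1, a protein of the mobile L1 stalk, at 6.89 ± 1.34. In all 6 genes the highest library was knockout library 1 and the groups overlapped. Mrpl57 had the same wild-type mean as Mrpl1, 6.89 FPKM, but was highest in wild-type library 2, at 7.83 FPKM.

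**Figure D1:**
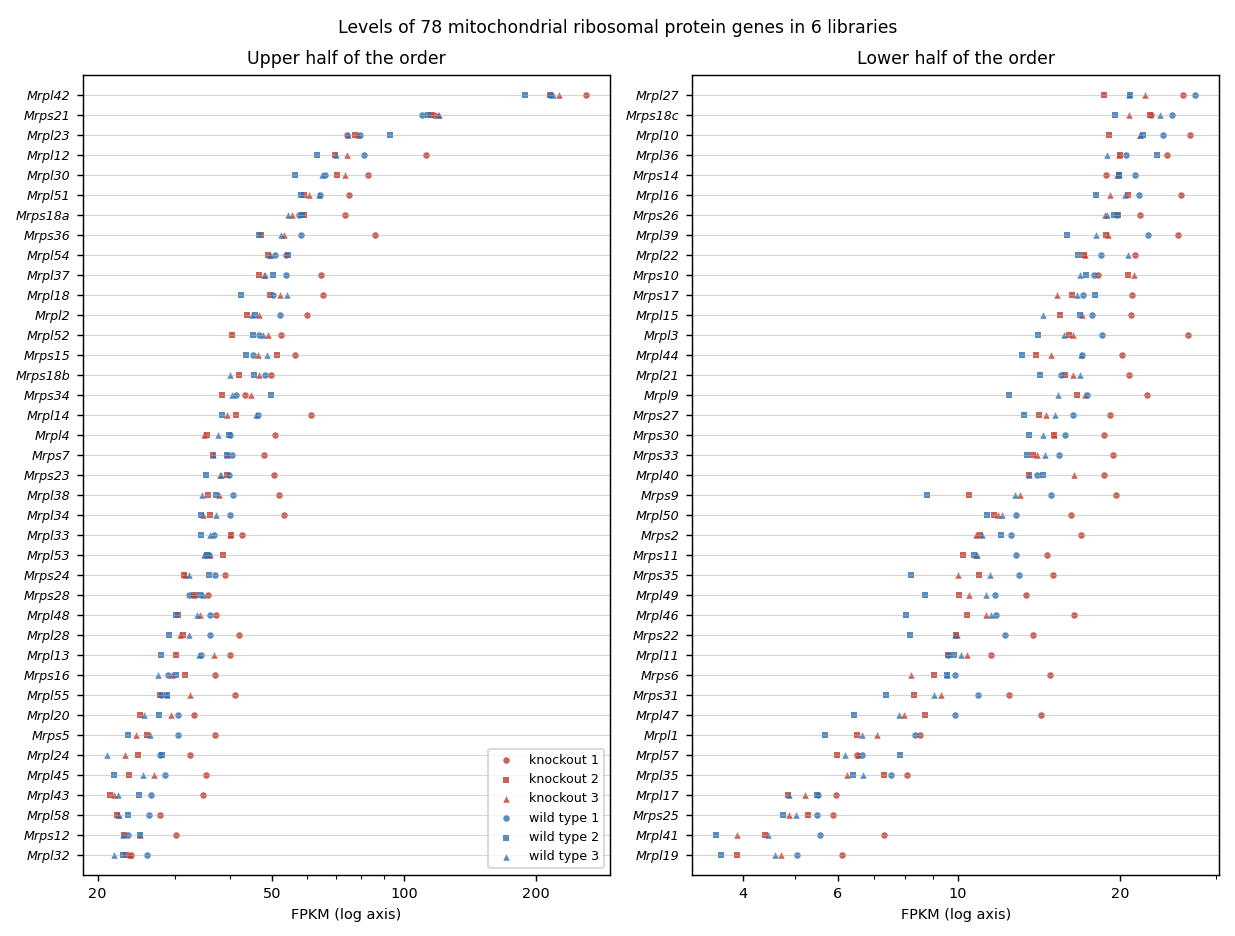
Deposited FPKM (log axis) of the 78 mitochondrial ribosomal protein genes in each of the 6 libraries, ordered by wild-type mean; red marks are knockout libraries, blue marks wild-type libraries, and the shape gives the library number. In wild type, Mrpl42 and Mrps21 sit apart at the top, and neighbours elsewhere overlap except Mrpl35 and Mrpl17. Knockout library 1 is the rightmost mark in 67 of the 78 genes.

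The order was stable from library to library. Spearman correlations of the 78 levels between libraries ran from 0.971 to 0.992 over the 15 pairs of libraries, a description across genes that share length and composition. Of the 77 pairs of neighbours in the wild-type order, 74 had overlapping wild-type ranges. The 3 pairs with a gap were Mrpl42 over Mrps21, Mrps21 over Mrpl23, and Mrpl35 over Mrpl17.

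The 3 mouse relatives of bacterial S18 are products of separate genes, of which Mrps18a serves the large subunit while Mrps18b and Mrps18c serve the small one. Mrps18a had a wild-type mean of 56.8 ± 2.19 FPKM (SD, n = 3), Mrps18b 44.7 ± 4.15 and Mrps18c 22.7 ± 2.82. Their wild-type ranges did not overlap: the lowest Mrps18a library was at 54.4, Mrps18b ran from 40.1 to 48.3, and the highest Mrps18c library was at 24.9. In the knockout libraries the order was the same, at 55.4 to 73.5 FPKM for Mrps18a, 42.1 to 49.8 for Mrps18b and 20.8 to 22.8 for Mrps18c. Mrpl32, a large-subunit protein that is cut by a protease of the inner membrane before it is built in, lay between 21.8 and 25.9 FPKM in all 6 libraries. Mrps12, which helps form the decoding centre, lay between 22.8 and 24.98 FPKM in 5 libraries and at 30.2 in knockout library 1.

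The knockout comparison asks whether these transcripts differ when Tmem182 is lost, and none of the 78 passed the test. The count of 0 held by edgeR's quasi-likelihood test with Benjamini-Hochberg adjustment, by the DESeq2 Wald test and by limma on FPKM. By edgeR, none had an unadjusted p under 0.05 either, where 453 of the 12774 genes tested, or 3.55%, did. The smallest unadjusted p among the 78 was 0.0733. By the sign of edgeR's log2 fold change, 46 genes were higher in knockout and 32 lower. The median log2 fold change was 0.02, with quartiles of -0.04 and 0.09. Over all genes tested the median was 0.0046, with quartiles of -0.11 and 0.13. The median standard error was 0.11 for these genes and 0.17 over all genes. In bulk tissue, fewer cells of a type and less RNA per cell cannot be told apart.

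The intervals limit how large a difference could be. The 95% interval of the log2 fold change lay wholly within ±0.5 for 69 of the 78 genes, or 88.5%, against 47.2% of all genes tested and 72.2% of the 6153 genes in the same range of levels. It lay within ±0.25 for 11 genes and within ±1 for all 78, and the widest bound was 0.72, for Mrpl47. Large-subunit genes had 29 higher and 22 lower with a median of 0.02, and small-subunit genes had 17 higher and 10 lower with a median of 0.04. The split between higher and lower moved with the scale. With limma on log2(FPKM + 1), 67 genes were higher and 11 lower, with a median log2 difference of 0.09, and the median of all genes moved to 0.05. Without wild-type library 2, the split by edgeR was 40 higher and 38 lower, with a median of 0.0020.

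**Figure D2:**
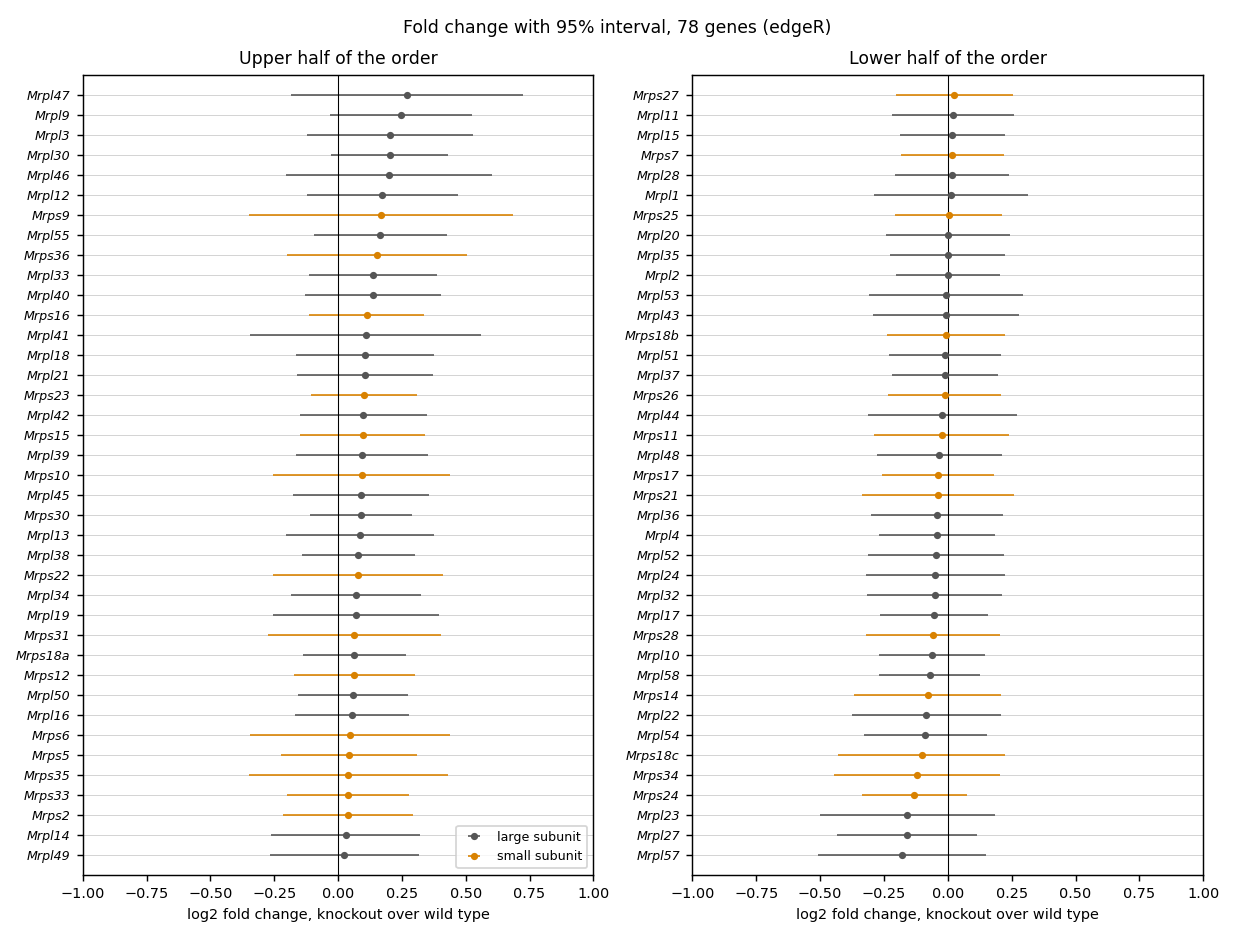
Log2 fold change, knockout over wild type, of each of the 78 genes from edgeR's fit to counts, with 95% intervals as bars. The estimates run from -0.18 for Mrpl57 to 0.27 for Mrpl47, and none of the genes passed the test.

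Mrpl9 and Mrpl30, both proteins of the large subunit with bacterial counterparts, had the smallest p-values. In counts scaled to library size with TMM factors (CPM), Mrpl9 stood at 30.1, 27.6 and 29.1 in knockout libraries 1, 2 and 3 and at 26.5, 20.6 and 26.0 in wild-type libraries 1, 2 and 3. All knockout values were above all wild-type values, and wild-type library 2 was the low one. The log2 fold change of Mrpl9 was 0.25 (SE 0.12, 95% interval -0.03 to 0.52, unadjusted p = 0.0733, Benjamini-Hochberg adjusted p = 0.994, edgeR quasi-likelihood test). It was 0.14 without wild-type library 2. On the deposited FPKM scale the groups of Mrpl9 overlapped, at 22.4, 16.6 and 17.2 against 17.4, 12.4 and 15.3.

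Mrpl30 stood at 48.0, 50.1 and 53.0 CPM in the knockout libraries and at 43.5, 40.3 and 47.6 CPM in the wild-type libraries. The groups were separate, by a narrow gap between knockout library 1 and wild-type library 3. They were also separate in FPKM, at 82.8, 70.3 and 73.2 against 66.2, 56.5 and 65.2. The log2 fold change of Mrpl30 was 0.20 (SE 0.10, unadjusted p = 0.0774, adjusted p = 0.994 by the same edgeR quasi-likelihood test with Benjamini-Hochberg adjustment). Mrpl9 lies on chromosome 3 at 94443318 to 94451130 and Mrpl30 on chromosome 1 at 37890477 to 37898535, both on the plus strand. Both carry the Nrf1 motif in the promoters printed above. Of the 13 members with that motif, 7 had a positive log2 fold change, and the median of the 13 was 0.03, against 0.02 for the members without it.

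In 3 of the 78 genes the knockout libraries were all above the wild-type libraries in CPM, where 597 of the 12774 genes tested, or 4.67%, were. In 2 genes they were all below, against 576 of all genes, or 4.51%. The third gene in the upper set was Mrps30, at 24.9, 24.9 and 25.3 CPM in the knockout libraries and 23.9, 22.3 and 24.4 in wild type, a log2 fold change of 0.09 (SE 0.08). Its groups were separated by a gap smaller than the spread of the wild-type libraries. In the lower set, Mrps24, a small-subunit protein near the path of the entering message, stood at 24.4, 25.5 and 24.6 CPM in the knockout libraries and 26.9, 28.8 and 25.7 in wild type. Its log2 fold change was -0.13 (SE 0.09, unadjusted p = 0.181), and the groups almost touched at knockout library 2 and wild-type library 3. Mrps24 lies on chromosome 11 at 5703983 to 5715680, on the minus strand. Mrpl58, a peptidyl-tRNA hydrolase built into the large subunit that frees stalled chains, stood at 18.996, 18.7 and 19.6 CPM in the knockout libraries and 20.5, 19.7 and 19.97 in wild type, a log2 fold change of -0.07 (SE 0.09). Without wild-type library 2 the estimate was 0.05 for Mrps30 and -0.09 for Mrps24. The other 73 genes had overlapping groups in CPM. On the FPKM scale the groups of Mrps30, Mrps24 and Mrpl58 overlapped. There knockout library 1 was the highest of all libraries for Mrps24, at 38.96 FPKM, and for Mrpl58, at 27.7 FPKM.

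Of the 5 smallest p-values in each direction, the other genes had overlapping groups. On the positive side these were Mrpl55, Mrpl3 and Mrpl47. Mrpl55 had a log2 fold change of 0.17 (SE 0.11), with 32.3, 26.98 and 32.2 CPM in the knockout libraries and 24.9, 27.9 and 28.8 in wild type. Mrpl3, a core protein near the centre where peptide bonds form, had 0.20 (SE 0.14), and its high value of 34.2 CPM came from knockout library 1, with the other 5 libraries between 22.3 and 26.9. Mrpl47, the lowest-count gene, had the top estimate of 0.27 (SE 0.19), with 10.2 CPM in knockout library 1, 5.69 in wild-type library 2 and 7.11 to 8.06 in the rest. In both Mrpl3 and Mrpl47, knockout library 1 was highest and wild-type library 2 lowest. Without knockout library 1 the estimate was 0.05 for Mrpl3 and 0.10 for Mrpl47, and without wild-type library 2 it was 0.13 and 0.14. Mrpl55 was at 0.10 without wild-type library 1.

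On the negative side they were Mrpl27, Mrpl57, Mrpl23 and Mrps34. Mrpl57, a large-subunit protein particular to mitochondria, had the lowest estimate, -0.18 (SE 0.14), with 12.8, 14.8 and 16.4 CPM in the knockout libraries and 14.9, 19.1 and 15.7 in wild type. Mrpl27, which reaches toward the peptide-forming centre, had -0.16 (SE 0.12), with 14.9 to 17.9 CPM in knockout and 17.3 to 20.6 in wild type. Mrpl23 had -0.16 (SE 0.15), with 34.8 to 46.8 CPM in knockout and 42.5 to 54.2 in wild type. Mrps34, a small-subunit protein particular to mitochondria, had -0.12 (SE 0.14), with 32.2 to 41.6 CPM in knockout and 34.9 to 45.6 in wild type. In Mrpl57, Mrpl23 and Mrps34 the extremes were reversed from those of Mrpl3, with wild-type library 2 highest and knockout library 1 lowest. Without wild-type library 2 the estimates were -0.06 for Mrpl57, -0.05 for Mrpl23 and -0.0067 for Mrps34. Without knockout library 1 they were -0.09, -0.04 and -0.04, and without knockout library 3 Mrpl23 and Mrps34 were at -0.24 and -0.23. Mrps34 was at -0.21 without wild-type library 1. Mrpl27 was at -0.09 without knockout library 2 or without wild-type library 1.

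The summed level varied more among the knockout libraries than between the group means. Summed over the 78 genes, the FPKM level was 2915, 2290 and 2371 in knockout libraries 1, 2 and 3 and 2462, 2246 and 2324 in wild-type libraries 1, 2 and 3. The knockout mean was 2525 ± 340 (SD, n = 3) and the wild-type mean 2344 ± 109 (SD, n = 3), with overlapping ranges. Their ratio was 1.08, and without knockout library 1 it was 0.994. In TMM-scaled CPM, knockout library 1 no longer stood apart, at 2495 beside 2376 and 2490 in the other knockout libraries and 2386, 2326 and 2476 in wild type.

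Knockout library 1 gave the highest FPKM for 67 of the 78 genes, or 85.9%, against 62.2% of all genes tested. In CPM after TMM scaling it was highest for 31 genes, or 39.7%, against 29.9% of all genes, and lowest for 15. Wild-type library 2 was lowest in CPM for 34 genes, or 43.6%, against 22.7% of all genes. The median log2 deviation from each gene's mean was 0.05 in knockout library 1 and -0.06 in wild-type library 2, with the rest from -0.04 to 0.03. The coefficient of variation of CPM within wild type had a median of 7.56% over the 78 genes and 11.6% over all genes, and within knockout 7.66% against 14.1%. Over the 6153 genes in the same range of levels it was 8.68% in wild type and 10.7% in knockout. The libraries that stood at the ends also differed in fibre type and cell markers. The mean log2 CPM of slow-fibre genes was 8.02, 7.70 and 3.43 in knockout libraries 1, 2 and 3 and 6.57, 3.57 and 6.43 in wild-type libraries 1, 2 and 3. Summed Schwann cell markers stood at 307.5 FPKM in knockout library 1, 19.8 in wild-type library 2 and 38.2 to 202.0 in the others, with all 5 markers highest in knockout library 1. The 5 macrophage markers, also highest there, summed to 42.8 FPKM against 10.7 to 18.5 elsewhere. Their part in the levels of the ribosomal protein genes was not tested. None of the 78 genes was called with or without the slow-fibre level as a covariate, so that count could not show its part.

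The genes whose wild-type CPM varied most were Mrps9, Mrpl46 and Mrps35, with coefficients of variation of 24.7%, 19.3% and 19.3%. Mrps9 stood at 14.9, 8.76 and 12.8 FPKM in wild-type libraries 1, 2 and 3 and at 19.6, 10.5 and 13.03 in the knockout libraries. Wild-type library 2 was lowest and knockout library 1 highest in all 3 genes. Mrpl46 ran from 8.01 to 16.4 FPKM and Mrps35 from 8.21 to 15.0 over the 6 libraries.

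**Figure D3:**
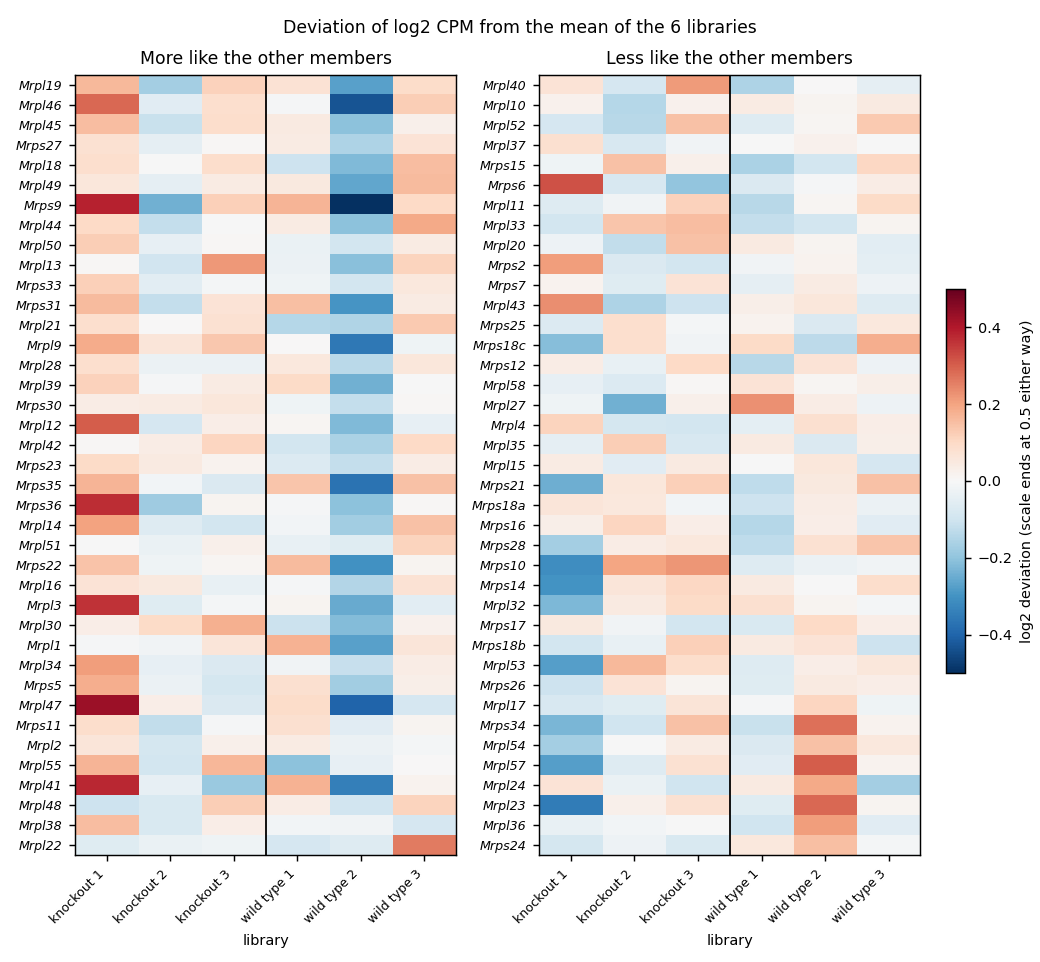
Log2 deviation of TMM-scaled CPM from each gene's mean over the 6 libraries (columns) for the 78 genes (rows), in colour. Low values gather in the column of wild-type library 2, which is lowest for 34 genes, and high values in that of knockout library 1, which is highest for 31, with some rows reversed.

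The 78 genes moved together only in part. The median Pearson correlation over the 3003 pairs was 0.11 across the 6 libraries, and the median correlation of a gene with the mean of the other 77 was 0.38. It was positive for 56 genes and above 0.5 for 37. The genes most like the mean of the others were Mrpl19 (0.94), Mrpl46 (0.94) and Mrpl45 (0.92), the last a protein that ties the ribosome to the inner membrane. The knockout libraries gave 35.4, 23.6 and 26.9 FPKM for Mrpl45, and wild type gave 28.6, 21.8 and 25.4. The least like were Mrps24 (-0.86), Mrpl36 (-0.73) and Mrpl23 (-0.72). Mrpl36 was at 23.4 FPKM in wild-type library 2, above the 18.9 and 20.5 of the other wild-type libraries. These correlations are descriptions over 6 libraries that share depth and composition differences.

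Genes that work with the mitochondrial ribosome, taken from lists by function, gave 0 calls as well. Ribosomal subunits with other names, 5 of them tested, had 3 higher and 2 lower with a median log2 fold change of 0.01. Ptcd3 was at 0.18 (SE 0.15), Aurkaip1 at 0.07 (SE 0.09) and Gadd45gip1 at -0.05 (SE 0.11), the last changing sign on the FPKM scale. Without wild-type library 2 Ptcd3 was at 0.03, and without wild-type library 1 Aurkaip1 was at 0.03. Gadd45gip1 was at 0.0231 without knockout library 2 and at -0.14 without knockout library 1. Assembly and ribosomal RNA modification factors, 30 of them tested, had 16 higher and 14 lower with a median of 0.02. Of these, Fastkd2, an RNA-binding protein of ribosome assembly, was at 21.5, 21.9 and 23.5 CPM in knockout against 19.6, 20.3 and 19.4 in wild type, a log2 fold change of 0.17 (SE 0.09). The RNA helicase Dhx30 was at -0.15 (SE 0.09) and the GTPase Noa1 at -0.19 (SE 0.12), which was -0.10 without knockout library 2 and -0.28 without knockout library 3.

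Translation factors of mitochondria, 15 of them tested, had 11 higher and 4 lower with a median of 0.11. The recycling factor Mrrf, which splits ribosomes after termination, was at 18.9, 15.5 and 15.5 CPM in knockout against 15.1, 11.4 and 14.3 in wild type. The groups of Mrrf were separate in CPM but overlapped in FPKM. Its log2 fold change was 0.29 (SE 0.14, unadjusted p = 0.0817 by edgeR's quasi-likelihood test). Guf1, a back-translocating GTPase, was at 0.28 (SE 0.16), and Taco1, an activator of cytochrome oxidase subunit translation, at 0.17 (SE 0.12). Without knockout library 1 the estimate was 0.185 for Mrrf and 0.06 for Taco1, without wild-type library 2 it was 0.177 and 0.10, and without knockout library 2 Guf1 was at 0.13. Mitochondrial aminoacyl-tRNA synthetases, 17 of them tested, had 6 higher and 11 lower with a median of -0.01. Of these 17, the tyrosine enzyme Yars2 had an unadjusted p under 0.05, at 10.04, 8.84 and 8.54 CPM in knockout against 8.06, 6.75 and 6.87 in wild type. Its groups were separate in CPM but overlapped in FPKM. In CPM the knockout libraries were all above wild type in 4.67% of all genes tested. The log2 fold change of Yars2 was 0.34 (SE 0.14, unadjusted p = 0.0432, Benjamini-Hochberg adjusted p = 0.994, edgeR quasi-likelihood test). The serine enzyme Sars2 was at -0.20 (SE 0.11), and at -0.13 without knockout library 1.

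Mitochondrial transcription and RNA processing genes, 16 of them tested, had 10 higher and 6 lower with a median of 0.05. Tfam, which packages and transcribes mitochondrial DNA, stood at 25.03, 27.7 and 29.1 CPM in knockout and 22.1, 22.9 and 25.2 in wild type, with overlapping groups and a log2 fold change of 0.22 (SE 0.10). Slirp, which stabilises mitochondrial messages, was at 0.26 (SE 0.13) and the exonuclease Pnpt1 at 0.26 (SE 0.17). Slirp was at 0.17 without wild-type library 1, and Pnpt1 at 0.12 without wild-type library 2. Nuclear regulators of mitochondrial genes, 10 of them tested, had 5 higher and 5 lower. An unadjusted p under 0.05 by edgeR was found for 2 of the 10, against 3.55% of all genes tested. Both had a Benjamini-Hochberg adjusted p of 0.994 by the same edgeR test. Gabpb2, a subunit of an ETS-family activator, stood at 29.7, 26.4 and 30.9 CPM in knockout and 36.8, 33.8 and 33.1 in wild type, a log2 fold change of -0.25 (SE 0.10, unadjusted p = 0.0369 by edgeR's quasi-likelihood test). Myc, a growth regulator, had 1.75, 1.60 and 1.79 FPKM in knockout and 3.43, 1.49 and 3.22 in wild type, a log2 fold change of -0.72 (SE 0.30, unadjusted p = 0.0472 by the same edgeR test). In FPKM, wild-type library 2 lay below all the knockout libraries for Myc, and the groups of Myc overlapped in CPM as well. The groups of Gabpb2 were separate in CPM but overlapped in FPKM, with knockout library 1 at 4.18 and wild-type library 3 at 3.69. Nrf1, which binds promoters of many nuclear mitochondrial genes, was at -0.21 (SE 0.14), and at -0.13 without knockout library 1 or -0.11 without wild-type library 2.

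For comparison, 36 complex I subunits, part of the chain that mitochondrial ribosomes supply, had 26 higher and 10 lower with a median of 0.04. Of these, 25 were lowest in wild-type library 2. Genes of mitochondrial content, 9 of them, had 6 higher and 3 lower with a median of 0.01, and 7 were lowest in wild-type library 2. Tomm20, an import receptor of the outer membrane, was at 0.22 (SE 0.10), and the respiratory chain genes Uqcrc2 and Cox4i1 at 0.21 (SE 0.19) and 0.12 (SE 0.16). Without knockout library 1, Uqcrc2 was at 0.07 and Cox4i1 at -0.0037, and without wild-type library 2 they were at 0.04 and 0.0099. Cox4i1 was at 0.19 without knockout library 3 and at 0.21 without wild-type library 3. Ribosomal proteins of the cytosol, 81 of them tested, had 30 higher and 51 lower with a median of -0.03. Whether any of these lists differed from the mitochondrial ribosomal protein genes was not tested.

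**Figure D4:**
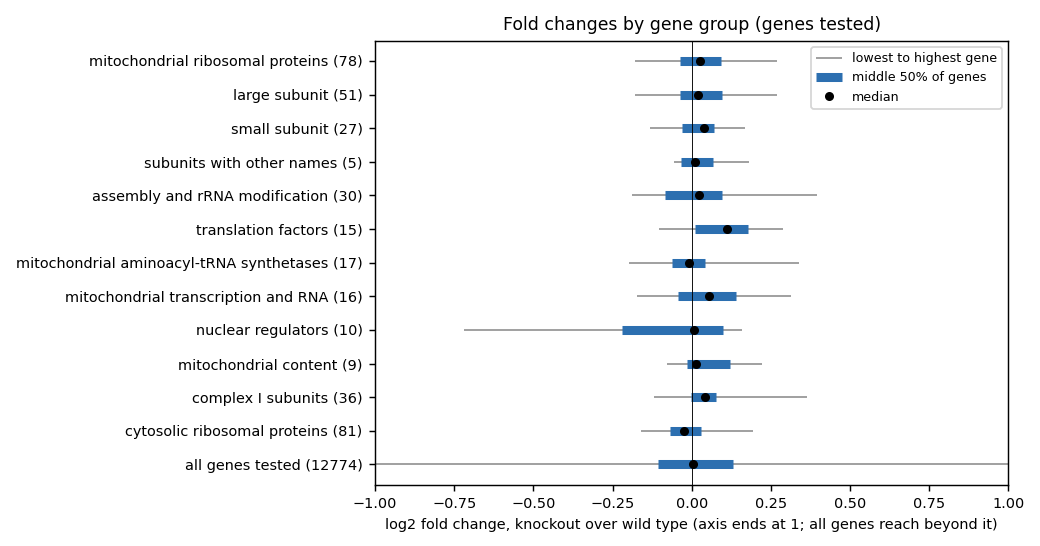
Log2 fold changes, knockout over wild type, of the mitochondrial ribosomal protein genes, the related gene lists and all genes tested. Thin lines run from the lowest to the highest gene, thick bars between the quartiles, and dots mark medians. The thin line of all genes tested is cut at the ends of the axis. The medians lie between -0.03 for cytosolic ribosomal proteins and 0.11 for translation factors, and 0 genes of any list passed the test.

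Many of the 78 genes share a start region with a neighbour on the opposite strand. By GENCODE M21 on GRCm38, 33 of the 78, or 42.3%, had a protein-coding gene of the opposite strand that starts within 1000 bases of their own start, against 1947 of 12540 protein-coding genes tested, or 15.5%. The pairs included Mrps11 with Mrpl46, both of them ribosomal protein genes, Mrps12 with Sars2, and Mrpl43 with Twnk, the helicase of mitochondrial DNA. Mrpl36 faces Ndufs6 and Mrpl47 faces Ndufb5, both complex I subunits. Levels within a pair were close in some cases and far apart in others. Mrps11 and Mrpl46 stood at 11.45 ± 1.17 and 10.4 ± 2.09 FPKM (SD, n = 3) in wild type, and Mrpl48 and its partner Rab6a at 33.3 ± 2.97 and 29.8 ± 0.674. Ndufs6, by contrast, stood at 145.9 ± 7.26 FPKM (SD, n = 3) in wild type where Mrpl36 ran from 18.9 to 23.4, and Ndufb5 at 191.1 ± 25.8 FPKM (SD, n = 3) where Mrpl47 lay under 10. Fau, the partner of Mrpl49, stood at 121.8 ± 11.3 FPKM (SD, n = 3). Of the 29 partners tested, 22 were below the ribosomal protein gene, 0 were called, and the median log2 fold change was 0.0078. Of the 29, 1 had an unadjusted p under 0.05 by edgeR, against 3.55% of all genes tested. It was Ppp1r10, the neighbour of Mrps18b, at a log2 fold change of -0.57 (SE 0.24, unadjusted p = 0.0469, Benjamini-Hochberg adjusted p = 0.994, edgeR quasi-likelihood test).

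Reads of some members are less certain than others. Exons of 8 members overlap another gene on the same strand and those of 28 overlap one on the opposite strand, and the sources used here do not give whether counting used strand. Among the genes described above, Mrps24 overlaps Urgcp, Mrps34 overlaps Nme3, and Mrpl51, Mrpl3 and Mrps18c also overlap genes on their own strand. Those that overlap genes on the opposite strand include Mrpl47 with Ndufb5 and Actl6a, Mrpl9 with Oaz3, and Mrpl36 with Ndufs6. Expected counts were whole numbers in all libraries for 51 members, with a tolerance of 0.005. In 18 members, Mrpl9 among them, they were not whole in any library.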

How the data were processed

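RNA was measured in 3 Tmem182 knockout and 3 wild-type gastrocnemius libraries, grouped by the genotype label. The tables deposited by the authors hold expected counts, not normalized (26.2% to 27.5% of them per library are not whole), and FPKM, per the file headers and the values. The submitters' processing notes name RSEM 1.2.12, HISAT2 2.0.4, Bowtie2 2.2.5 and the GRCm38 build. The annotation, read filters and strand handling were not found in the sources used here. RSEM divides reads shared between transcripts by estimation.

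Expected counts were rounded, filtered by filterByExpr (minimum count 10), scaled by TMM and compared by the two-sided quasi-likelihood test of edgeR 4.0.16 under R 4.3.3. P-values were adjusted by Benjamini-Hochberg over all 12774 genes, with a threshold of 0.05. SE is the absolute log2 fold change over the square root of F. CPM values use TMM-scaled library sizes. The common biological coefficient of variation was 18.8%. No pair of libraries agreed within counting noise (chi-square per degree of freedom at least 12.9). An exact permutation test of 3 against 3 libraries cannot go below p = 0.10, so none was used. Alternatives used DESeq2 1.42.0, limma 3.58.1 on log2(FPKM + 1), other filters, a replicate block, a slow-fibre covariate and each library left out.

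Named genes were the 6 highest and 6 lowest by wild-type FPKM, the 5 smallest p-values per direction, genes with separate groups, the 3 most variable, the 3 most and 3 least like the others, 8 chosen by role, and up to 3 per related list; a gene that the rule names is not reported here. Members, lists and rules were chosen with earlier results of these data known. Positions come from GENCODE M21 and promoters from RefSeq; 9 members had no promoter entry.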

Additional observations from a re-analysis of the deposited data

How the results depend on the processing

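None of the 78 genes was called in any alternative run. The number of genes called over the whole table was 1, with 0 to 1 when each library was left out and 6 by the DESeq2 Wald test; the cause was not tested. With the replicate block, 1 gene and 0 members were called. Deviations of same-numbered libraries correlated at 0.52, 0.18 and -0.12. Not every pair was above 0.1, so the numbers were not taken to pair the libraries. Members with an unadjusted p under 0.05 numbered 1 with the block (Mrpl9), 1 without knockout library 1 (Mrps10), 2 by limma on FPKM (Mrpl30 and Mrpl33) and 0 in the other settings. The median log2 fold change of the 78 ran from 0.0020 without wild-type library 2 to 0.090 by limma on FPKM. Gadd45gip1 went from -0.05 to 0.0043 by limma on FPKM and ran from -0.14 to 0.0231 with 1 library left out; Cox4i1 ran from -0.0037 to 0.21 with 1 library left out. Of the fold changes recomputed under the alternatives, 431 kept direction and side of the threshold, and 2 for Tmem182 lost the call. Apart from Tmem182, none of these genes was called in the main fit, and the count does not describe size. Mrps34, counted as kept, went from -0.12 to -0.0067 without wild-type library 2. With 3 libraries per group, differences smaller than the intervals given were not detectable.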

Other observations

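The low position of wild-type library 2 varied with the base composition of the transcripts. Over the 26 members with the lowest transcript GC content, 39.6% to 47.4%, the median log2 deviation of that library was -0.11. It was -0.05 over the middle 26 and 0.0059 over the 26 highest, which had 52.6% to 60.6% GC. The log2 fold change was positive for 17, 15 and 14 genes of these sets, with medians of 0.04, 0.02 and 0.02. Across the 78 genes, the deviation of wild-type library 2 had a Spearman correlation of 0.26 with GC content, and across 12541 of all genes tested it had 0.22. Other libraries had correlations of similar size across the 78 genes: -0.28 in knockout library 2 and -0.28 in wild-type library 1. Across the 12541 genes these were -0.14 and 0.06. The part of GC content in the comparison was not tested.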
